A study of Mus musculus with 22 samples.

Results

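The comparison is of liver messenger RNA after a high-fat diet with liver messenger RNA on chow, over all genes that the count files hold. It uses 6 of the 22 samples of the series, 3 mRNA libraries per diet, chosen by their labels. All mice were wild type C57BL/6J and 24 weeks old. The chow group ate Prolab Isopro RMH 3000 (Purina) throughout, and the other group ate the high-fat diet S3282 (Bioserve) for 16 weeks from the age of 8 weeks. Both groups were fasted overnight before the livers were clamp-frozen and powdered, so every value here is of a fasted liver. The labels give neither the sex of the mice nor whether each library stands for 1 animal, and p-values therefore measure the spread between these libraries. Each library is of whole liver, so fewer cells of a type and less RNA per cell cannot be told apart.

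The liver of a fasted mouse releases glucose and ketone bodies, breaks down amino acids and turns the nitrogen into urea. Hepatocytes near the portal vein do more of the urea and glucose work, and those near the central vein do more of the glutamine synthesis and drug metabolism, a division called zonation. The liver also makes most plasma proteins, which are glycosylated on their way out of the cell.

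Total counts ran from 19016275 to 45741794 per library, on 23227 genes, of which 12909 had enough counts to be tested. The deepest library, chow replicate 1, had more reads than any other, and reads carry no molecular identifiers. Levels are counts per 1000000 (CPM) after scaling of the libraries with TMM factors, which even out differences in composition, and are not divided by transcript length. Standard deviations (SD) are over 3 libraries. The 10 hepatocyte markers summed to 99754 to 107677 CPM on chow and 96560 to 120657 CPM on the high-fat diet, and Alb, serum albumin, was at 65189 CPM on chow (SD 4147) and 68449 CPM on the high-fat diet (SD 8933). Digestive enzymes of pancreas acinar cells were also present: the 55 genes of that list summed to 2761, 1261 and 478 CPM on chow and to 25.2, 281 and 65.9 CPM on the high-fat diet, with no overlap (exact permutation p = 0.1, two-sided, the smallest that 3 against 3 can give). Of the list 5 genes were at 0 in every library. Muscle genes summed to 229 CPM in chow replicate 1 and to between 11.3 and 27.7 CPM in the others. In a principal component analysis the diets lay apart on component 1, with 66.9% of the variance. Component 2, with 13.5%, separated high-fat-diet replicates 1 and 3 from each other.

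Of the 12909 genes tested, 2319 (18.0%) were higher and 2271 (17.6%) were lower on the high-fat diet by edgeR's quasi-likelihood test, two-sided, at a Benjamini-Hochberg adjusted p under 0.05. Rose and fell are used only of genes past this threshold. Increases were larger than decreases: the median size of a log2 change was 0.683 among genes that rose and 0.508 among those that fell, and 622 rose but 306 fell over 2-fold. Of the decreases, 60.8% were under 1.5-fold, against 39.6% of the increases. The 2 directions also differed by level. Among genes with a mean of 1 to 10 CPM, 683 rose and 362 fell of 4212, whereas among those over 100 CPM 334 rose and 411 fell of 1436. Genes that fell held 31.5%, 32.5% and 32.0% of all counts in the chow libraries and 19%, 19.1% and 19.4% in the high-fat-diet libraries. Genes that rose held 14.9%, 13.8% and 13.7% on chow and 23.5%, 24.8% and 25.6% on the high-fat diet. These genes were called on the same libraries, so a gap between the diets and like shares within a diet are partly built in. With plain library totals in place of TMM factors 2805 genes were higher and 1646 lower, and the median log2 difference of all genes was 0.10 in place of 0.02. Without chow replicate 2, 1489 rose and 1410 fell, and without high-fat-diet replicate 2, 1475 fell.

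Lists of lipid, clock, interferon and acute-phase genes held 138 of the 2319 genes that rose and 56 of the 2271 that fell. The remaining 2181 and 2215 genes, of 12598 tested outside those lists, are the subject of what follows. Each list's counts are to be read against the 18.0% and 17.6% of all genes that rose and fell. The pancreas acinar genes move with diet, so the mean log level of that list was also added to the model as a covariate, a term that is not independent of diet here. With it 371 genes rose and 385 fell, 751 of them among the 4590 and all 751 in the same direction. Of the 86 counts of 5 or more genes up or down in a list, 84 were over 1.5 times smaller with the acinar covariate, and the median log2 difference had the same sign in 80 of 92 lists of 10 or more genes. The part of the acinar signal in other results was otherwise not tested. Small counts also depend on single libraries: of 102 counts of 1 to 4 genes, 61 moved by over 1.5 times without 1 library or another.

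**Figure D1:**
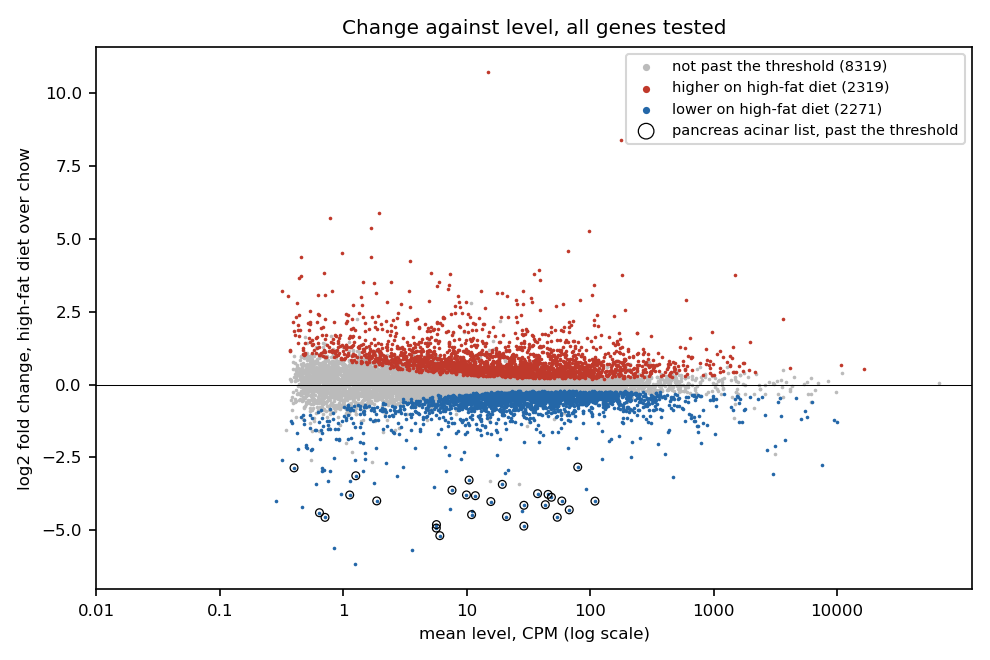
The log2 fold change of each of the 12909 tested genes (vertical axis, high-fat diet over chow) is plotted against its mean level in CPM (horizontal axis, log scale), with the 2319 genes that rose in red, the 2271 that fell in blue and circles around the pancreas acinar genes past the threshold. Most of the widest changes lie under 100 CPM, and the circled genes form a separate group near a log2 fold change of −4.

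**Figure D2:**
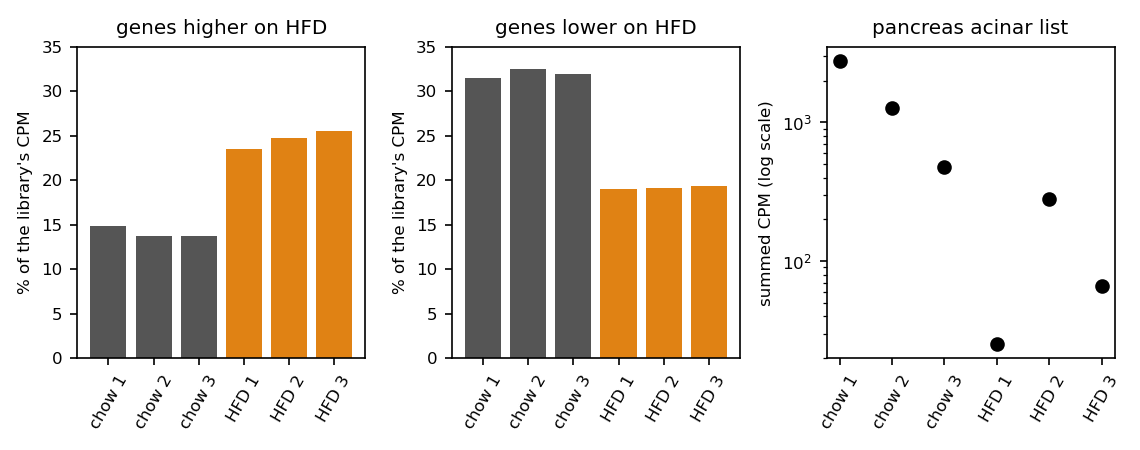
Bars give the share of each library's counts, in percent, held by genes that rose (left) and by genes that fell (middle), and points give the summed CPM of the pancreas acinar list on a log scale (right), for 3 chow and 3 high-fat-diet (HFD) libraries. The genes of the bars were called on these same libraries, so the gap between the diets and the like shares within a diet are partly built in. The acinar sum runs from 478 to 2761 CPM among chow libraries and from 25.2 to 281 CPM among high-fat-diet libraries.

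The 15 largest increases outside those lists were taken from genes at 5 CPM or more whose libraries did not overlap between the diets. Lack of overlap was common: it held for 2271 of the 2319 genes that rose and 2262 of the 2271 that fell. Among the 15 were genes of enzymes, transporters, receptors and non-coding transcripts. Cyp2b9, a cytochrome P450 known to be higher in female than in male mouse liver, was at 0.881, 2.25 and 0.161 CPM on chow and 247, 295 and 518 CPM on the high-fat diet. All 3 chow libraries were near 0 and all 3 high-fat-diet libraries far above them (log2 difference 8.38, SE 0.559, adjusted p = 7.07e-05); its log2 difference was 9.10 without chow replicate 2. Its neighbour Cyp2b13 was at 0, 0.0536 and 0 CPM on chow and 8.49, 5.76 and 74.4 CPM on the high-fat diet, so that 1 library holds most of its level, and with chow at or near 0 no fold is given, with or without chow replicate 2. The Riken transcript C730036E19Rik was at 7.07, 5.1 and 3.17 CPM on chow and 156, 124 and 105 CPM on the high-fat diet (log2 difference 4.59, SE 0.271, adjusted p = 5.00e-05), and 9030619P08Rik rose 14.3-fold.

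Of enzymes, Aacs, acetoacetyl-CoA synthetase, which returns ketone bodies to lipid synthesis in the cytosol, was at 6.05, 6.44 and 5.75 CPM on chow and 76.6, 83.4 and 58.8 CPM on the high-fat diet. Its libraries were tight within each diet, and the gene rose 12-fold (log2 difference 3.58, SE 0.146, adjusted p = 1.68e-05). Of transporters, Slc22a27 rose to a mean of 6.59 CPM (log2 difference 4.25; its log2 difference was 3.53 without chow replicate 1 and 3.66 without high-fat replicate 3) and Slc22a7, the organic anion transporter OAT2, to 51.8 CPM (log2 difference 3.23; its log2 difference was 3.94 without chow replicate 1). Scara5, a scavenger receptor that takes up ferritin, was at 2.62, 3 and 5.38 CPM on chow and 44.5, 35.2 and 14.4 CPM on the high-fat diet, highest in high-fat-diet replicate 1 (log2 difference 3.14, SE 0.437, adjusted p = 0.00123).

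Rgs16, which ends signals of G proteins and is known as a fasting- and feeding-regulated liver gene, was at 18.4, 15 and 22.4 CPM on chow and 218, 220 and 157 CPM on the high-fat diet. No library of one diet came near the other (log2 difference 3.42, SE 0.183, adjusted p = 3.79e-05). Ntrk2, the receptor of the neurotrophin BDNF, was at 1.15, 0.536 and 1.08 CPM on chow and 3.5, 7.18 and 22.3 CPM on the high-fat diet, with its highest value in high-fat-diet replicate 3 (log2 difference 3.51, SE 0.689, adjusted p = 0.00562; its log2 difference was 2.48 without high-fat replicate 3). The adhesion receptor Gpr98 rose 9.21-fold, Sema5b, a semaphorin, 9.21-fold, and Themis, known for its part in T cell development, 9.78-fold. H2-Q1, of the class Ib histocompatibility genes, rose 10.6-fold; its log2 difference was 2.68 without high-fat replicate 3.

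Of the genes that fell, 15 are named for the size of the decrease, again only from genes without overlap. The Riken transcript 3930402G23Rik was at 4.92, 8.31 and 7.85 CPM on chow and 0.233, 0.0784 and 0.0895 CPM on the high-fat diet (log2 difference −5.68, SE 0.393, adjusted p = 8.84e-05; its log2 difference was −6.29 without high-fat replicate 1). E030018B13Rik fell 20-fold, B930025P03Rik 7.86-fold, and 9430037G07Rik fell too (log2 difference −2.93; its log2 difference was −3.66 without high-fat replicate 1). Gm15441 was at 50.7, 61.9 and 46.5 CPM on chow and 3.45, 2.47 and 1.97 CPM on the high-fat diet. The labelled kit does not mark strand, so reads of Gm15441 cannot be told from those of an antisense partner. Asns, asparagine synthetase, was at 12.7, 8.31 and 20.5 CPM on chow and 0.7, 1.06 and 0.358 CPM on the high-fat diet, under 1.1 CPM in each high-fat-diet library (log2 difference −4.26, SE 0.429, adjusted p = 0.000305).

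Lepr, the leptin receptor, was at 10.5, 53.2 and 46.4 CPM on chow and 3.59, 3.84 and 6 CPM on the high-fat diet. Chow replicate 1 lay far below the other chow libraries but, as the choice of genes requires, above every high-fat-diet library (log2 difference −3.02, SE 0.563, adjusted p = 0.00452). Igfbp1, an insulin-repressed binding protein of insulin-like growth factors, was at 192, 163 and 283 CPM on chow and 44.8, 32.1 and 32.9 CPM on the high-fat diet (log2 difference −2.54, SE 0.22, adjusted p = 0.000176). Gadd45b, a stress-induced gene of the Gadd45 family, fell 5.87-fold, and Hunk, a protein kinase, 7.06-fold. Tuba8, an alpha-tubulin, was at 9.55, 10.9 and 9.36 CPM on chow and 0.513, 0.431 and 1.7 CPM on the high-fat diet (log2 difference −3.50; its log2 difference was −4.39 without high-fat replicate 3). Agxt2l1, which breaks down phosphoethanolamine, fell from 361 CPM (SD 57.1) to 64.8 CPM (SD 21.4), a 5.57-fold decrease. Nipal1, of a family of magnesium transporters, fell 5.29-fold, and Peg3, a paternally expressed zinc finger gene, fell from 29.5 CPM (SD 7.06) to 5.55 CPM (SD 1.46). Mup14 fell from 838 CPM (SD 125) to 93.7 CPM (SD 80.4), but reads of major urinary protein genes are shared by near-identical copies, so its value is uncertain; its log2 difference was −4.13 without high-fat replicate 1.

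**Figure D3:**
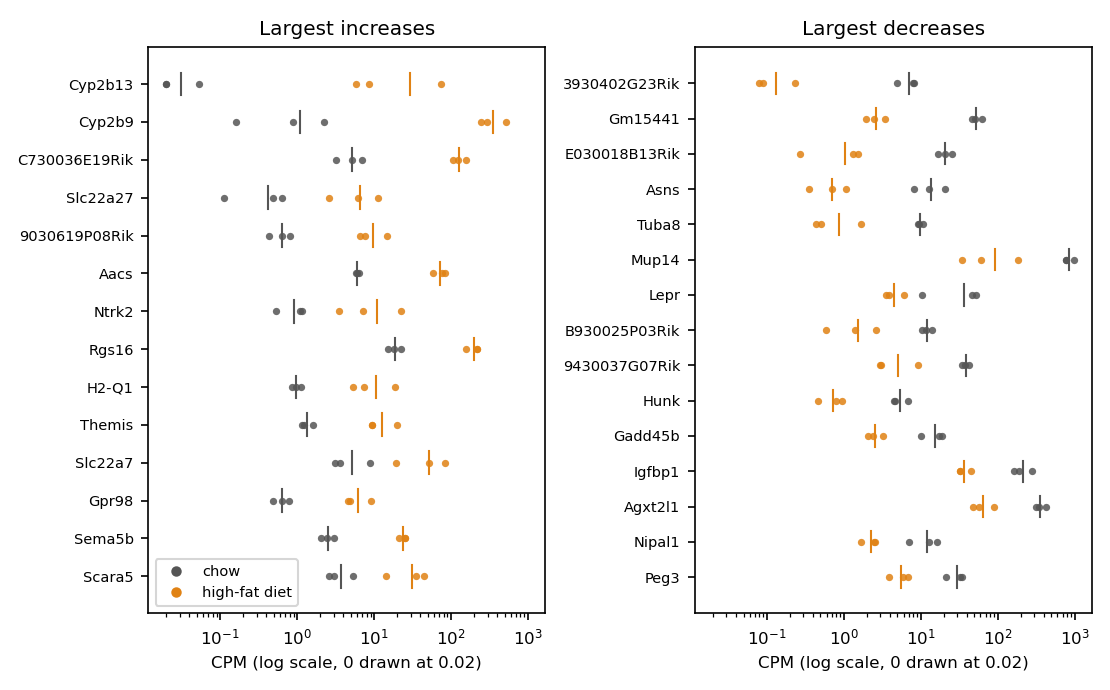
Each point is the CPM of 1 library (horizontal axis, log scale) for 14 of the 15 genes with the largest increases (left) and the 15 with the largest decreases (right), chow in grey and the high-fat diet in orange, with short lines at the means. The genes were chosen for having no overlap between the diets, so no row shows any. Cyp2b13 and Ntrk2 have 1 high-fat-diet library well above the other 2.

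By the difference in CPM, which favours abundant and long transcripts, the 8 largest gains outside the lipid, clock, interferon and acute-phase lists included secreted proteins and redox enzymes. Trf, transferrin, the iron carrier of plasma, went from 8311 CPM (SD 403) to 13322 CPM (SD 722) (log2 difference 0.68, SE 0.152, adjusted p = 0.00983; its adjusted p was 0.0778 without chow replicate 2). Fn1, plasma fibronectin, was at 1244, 1207 and 1403 CPM on chow and 2306, 2206 and 2000 CPM on the high-fat diet, higher in each high-fat-diet library. Alas1, the first and rate-limiting enzyme of heme synthesis in liver, was at 443, 458 and 397 CPM on chow and 1919, 1652 and 995 CPM on the high-fat diet (log2 difference 1.81, SE 0.222, adjusted p = 0.000688). The alcohol and aldehyde enzymes Adh1 and Aldh2 rose 1.95-fold and 1.68-fold. Sord, which makes fructose from sorbitol, rose 1.88-fold, Fmo5, a flavin monooxygenase, 2.2-fold, and Sardh, sarcosine dehydrogenase of mitochondria, 1.95-fold.

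Among the 8 largest losses was that of Mat1a, which makes S-adenosylmethionine in liver, at 12649, 12972 and 13615 CPM on chow and 5426, 5869 and 5660 CPM on the high-fat diet (log2 difference −1.21, SE 0.146, adjusted p = 0.000662). Its high-fat-diet libraries were close together and far under every chow library. Tdo2, which opens the tryptophan ring, fell 2.06-fold, and the Riken transcript A130040M12Rik fell 2.11-fold. Cyp3a11, a drug-metabolising P450, was at 4950, 4048 and 4306 CPM on chow and 513, 467 and 1815 CPM on the high-fat diet (log2 difference −2.25, SE 0.491, adjusted p = 0.00882; its log2 difference was −3.18 without high-fat replicate 3). Mug1, a protease inhibitor of plasma, fell from 7504 CPM (SD 341) to 4954 CPM (SD 612); its adjusted p was 0.0506 without chow replicate 1, 0.0621 without chow replicate 2 and 0.0587 without high-fat replicate 2. The urinary protein genes Mup20 and Mup7, again with near-identical copies, fell 2.18-fold and 4.34-fold; for Mup7 its log2 difference was −3.30 without high-fat replicate 1 and its adjusted p was 0.0755 without chow replicate 1, 0.0733 without chow replicate 2, 0.0605 without chow replicate 3 and 0.106 without high-fat replicate 2.

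Most tested genes of RNA splicing fell with all libraries. Of 40 tested splicing factors, 1 rose and 26 fell, with a median log2 difference of −0.38 against 0.02 over all genes. The changes were small: at a test against 1.5-fold (glmTreat) 1 gene of the list fell. Rbm3 and Cirbp, RNA-binding proteins induced by cold, moved most. Rbm3 was at 85.8, 85 and 92.9 CPM on chow and 34.7, 32.8 and 38.6 CPM on the high-fat diet (log2 difference −1.31, SE 0.0875, adjusted p = 7.07e-05) and Cirbp fell from 21 CPM (SD 5.44) to 9.78 CPM (SD 1.66) (log2 difference −1.11). Srsf4, a serine- and arginine-rich factor, was the member that rose, from 32.3 CPM (SD 4.21) to 52.3 CPM (SD 4.97), and Prpf8, the core protein of the spliceosome, was at 232 CPM on chow (SD 14.9) and 264 CPM on the high-fat diet (SD 20.2) without passing. In fits with 5 libraries, 14 without chow replicate 2 and 17 without high-fat replicate 2 fell. With total counts 4 rose and 20 fell, and with the acinar covariate 0 rose and 10 fell (median −0.54).

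Other RNA-binding and nuclear lists also had more decreases than increases. Of 35 DEAD-box helicases, which unwind RNA, 2 rose and 13 fell (median −0.12). The 2 that rose, Ddx60 (log2 difference 1.41) and Ddx58 (log2 difference 0.91), are interferon-induced sensors of viral RNA. Ddx3y, on the Y chromosome, was at 104, 119 and 119 CPM on chow and 54.6, 51 and 77.9 CPM on the high-fat diet (log2 difference −0.90, SE 0.156, adjusted p = 0.00332), and Eif2s3y, also on the Y, at 67.4, 65.1 and 66.4 CPM on chow and 46.9, 42.1 and 40.7 CPM on the high-fat diet (log2 difference −0.62). Both were lower in each high-fat-diet library than in any chow library. Of 12 long non-coding host genes 6 fell and none rose (median −0.49): Neat1, the scaffold of paraspeckles, was at 441, 284 and 246 CPM on chow and 197, 131 and 140 CPM on the high-fat diet (log2 difference −1.05, SE 0.233, adjusted p = 0.00936), Snhg11 fell 2.97-fold, and Malat1 was at 287 CPM on chow (SD 41.4) and 341 CPM on the high-fat diet (SD 161) without passing. Of 317 Zfp genes 20 rose and 59 fell (median −0.10), which is 6.31% higher, against 18.0% of all genes, and 18.6% lower, close to the 17.6% of all genes. With total counts 28 rose and 38 fell. Zfp810 fell 2.55-fold and Zfp612 2.01-fold. On leaving out single libraries, 10 without chow replicate 1, 11 without chow replicate 2, 10 without chow replicate 3 and 9 without high-fat replicate 2 rose, and 30 without chow replicate 2, 39 without chow replicate 3 and 32 without high-fat replicate 2 fell.

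Of 42 genes of DNA and histone methylation 4 rose and 16 fell (median −0.16). With the acinar covariate 0 rose and 0 fell (median −0.22), and at the test against 1.5-fold 0 rose and 0 fell. Kdm6b, a demethylase of H3K27, rose from 19.5 CPM (SD 1.44) to 34.2 CPM (SD 2.94), and Setd7, a lysine methyltransferase, fell from 15.4 CPM (SD 2.78) to 8.79 CPM (SD 2.8); its adjusted p was 0.0589 without chow replicate 2, 0.0773 without chow replicate 3, 0.0502 without high-fat replicate 1 and 0.0867 without high-fat replicate 2. When 1 library was dropped, 8 without chow replicate 2, 10 without chow replicate 3 and 7 without high-fat replicate 2 fell. The SWI/SNF remodelling complex went both ways, with 7 of 22 raised and 5 lowered: its ATPase Smarca4 rose from 56.2 CPM (SD 5.37) to 97.2 CPM (SD 6.72) and the Arid2 subunit fell from 42.6 CPM (SD 1.73) to 28.4 CPM (SD 0.763). With 1 library left out, 2 without chow replicate 2, 2 without chow replicate 3 and 3 without high-fat replicate 2 fell. Of histone genes 1 of 19 rose and 6 fell, with the linker histone Hist1h1c at 81.9, 85.6 and 90.8 CPM on chow and 34.9, 24.9 and 33.2 CPM on the high-fat diet, lower in every high-fat-diet library (log2 difference −1.48). In fits with 5 libraries, 3 without chow replicate 2 and 3 without high-fat replicate 2 fell. Polr2a, the largest subunit of RNA polymerase II, rose 1.5-fold.

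The making of ribosomes and the start of translation followed the same direction. Of 41 ribosome biogenesis factors none rose and 15 fell (median −0.25), and with the acinar covariate 0 rose and 2 fell (median −0.37). Nop58, a core protein of the small nucleolar particles that guide methylation of ribosomal RNA, was at 28.8, 36.5 and 29.9 CPM on chow and 15.5, 15.7 and 15 CPM on the high-fat diet (log2 difference −1.04, SE 0.107, adjusted p = 0.000324), and Tsr1, needed for the small subunit, fell 1.84-fold. Rrp1 was at 74.5 CPM on chow (SD 0.337) and 70.3 CPM on the high-fat diet (SD 0.769) without passing. Of 43 translation factors 2 rose and 14 fell (median −0.13). Eif4ebp3, a repressor that binds the cap-binding protein eIF4E, was at 99.7, 107 and 117 CPM on chow and 34.3, 19.5 and 17.3 CPM on the high-fat diet, a 4.55-fold decrease (log2 difference −2.19, SE 0.234, adjusted p = 0.000394). Its relative Eif4ebp2 rose from 87.2 CPM (SD 3.54) to 117 CPM (SD 16.9); its adjusted p was 0.0558 without chow replicate 1, 0.0655 without chow replicate 2 and 0.0596 without high-fat replicate 2. Eif5, which starts the release of initiation factors, fell from 421 CPM (SD 16.5) to 251 CPM (SD 11.3), while Eef1a1, the elongation factor, was at 4465 CPM on chow (SD 114) and 3856 CPM on the high-fat diet (SD 111) without passing. On leaving out single libraries, 8 without chow replicate 2 fell.

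Enzymes that load transfer RNA went both ways, 3 up and 5 down of 20, where 18.0% and 17.6% of all genes rose and fell. Whether this list differs from all genes was not tested. With total counts 4 rose and 3 fell, and with the acinar covariate 0 rose and 1 fell (median −0.19). At the test against 1.5-fold 0 rose and 0 fell. Wars rose from 15.6 CPM (SD 0.951) to 21.9 CPM (SD 2.38), and Lars and Tars fell 1.57-fold and 1.45-fold. When 1 library was dropped, 3 without chow replicate 2, 8 without high-fat replicate 1 and 3 without high-fat replicate 2 fell. Of 33 cytosolic and mitochondrial chaperones none rose and 10 fell (median −0.05). With the acinar covariate 0 rose and 0 fell (median −0.26), and at the test against 1.5-fold 0 rose and 0 fell. Hspa9, the mitochondrial Hsp70, was at 665, 734 and 716 CPM on chow and 485, 469 and 481 CPM on the high-fat diet (log2 difference −0.56, SE 0.0851, adjusted p = 0.00182), Cct8, a subunit of the actin- and tubulin-folding chaperonin, fell 1.37-fold, and the abundant Hspa8 was at 2346 CPM on chow (SD 316) and 2324 CPM on the high-fat diet (SD 252) without passing. With 1 library left out, 4 without chow replicate 2, 6 without chow replicate 3 and 4 without high-fat replicate 2 fell.

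In mitochondria, import and upkeep genes fell more often than they rose, 16 against 2 of 36 (median −0.20). Clpx, the unfoldase of the matrix protease ClpXP, was at 242, 280 and 254 CPM on chow and 108, 97.5 and 112 CPM on the high-fat diet (log2 difference −1.29, SE 0.0899, adjusted p = 9.17e-05). The chaperone of inner membrane import Timm9 fell 1.64-fold, and Oma1, a stress-activated protease, rose 1.41-fold. In fits with 5 libraries, 8 without chow replicate 2 and 9 without high-fat replicate 2 fell. Of 76 mitochondrial ribosomal proteins 5 rose (6.58%, against 18.0% of all genes) and 10 fell (13.2%, against 17.6%), and the balance turned with total counts, where 14 rose and 7 fell. On leaving out single libraries, 2 without chow replicate 1, 2 without chow replicate 2, 1 without chow replicate 3, 3 without high-fat replicate 1, 1 without high-fat replicate 2 and 10 without high-fat replicate 3 rose, and 6 without chow replicate 1, 3 without chow replicate 2, 5 without chow replicate 3, 18 without high-fat replicate 1, 3 without high-fat replicate 2 and 6 without high-fat replicate 3 fell. Of the citric acid cycle 3 of 19 genes rose and 6 fell: Fh1, fumarase, was at 372, 446 and 429 CPM on chow and 218, 194 and 172 CPM on the high-fat diet (log2 difference −1.09, SE 0.113, adjusted p = 0.000336), and Idh3a, of the NAD-linked isocitrate dehydrogenase, fell 1.94-fold. Of 39 mitochondrial carriers 7 rose (17.9%, against 18.0% of all genes) and 10 fell (25.6%, against 17.6%). The glutamate carrier Slc25a22 fell 1.85-fold and the liver-enriched Slc25a47 fell 1.84-fold. When 1 library was dropped, 3 without chow replicate 2 rose, and 5 without chow replicate 2 fell.

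**Figure D4:**
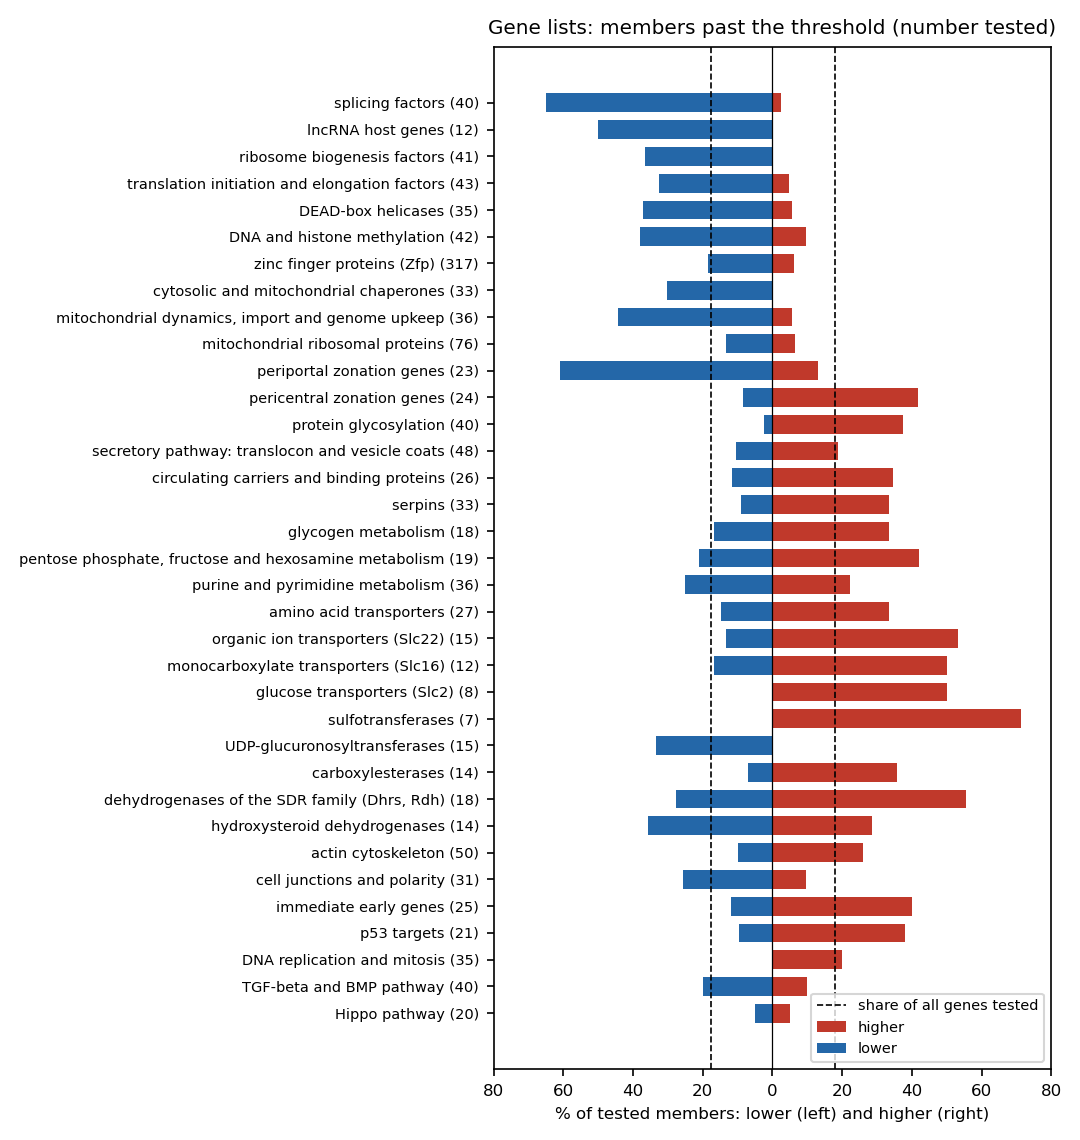
Bars give the percentage of tested members of 35 gene lists that rose (right, red) and fell (left, blue), with the number tested in brackets, and dashed lines mark the shares over all genes, 18.0% and 17.6%. Splicing factors and periportal genes reach farthest to the left, and sulfotransferases, which number only 7, farthest to the right.

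Zonation genes divided by zone. Of 23 periportal genes 3 rose and 14 fell (median −0.48), and of 24 pericentral genes 10 rose and 2 fell (median 0.33). With the acinar covariate 0 rose and 7 fell (median −0.56) of the periportal and 2 rose and 0 fell (median 0.26) of the pericentral genes. Several periportal members belong to the urea cycle and amino acid breakdown. Sdsl, a serine dehydratase, was at 28.6, 29.5 and 30.1 CPM on chow and 8.16, 7.21 and 8.91 CPM on the high-fat diet (log2 difference −1.86, SE 0.102, adjusted p = 3.83e-05). Uroc1, of histidine breakdown, went the other way, from 344 CPM (SD 57.9) to 590 CPM (SD 48.5), as did Trf; for Trf its adjusted p was 0.0778 without chow replicate 2. Pck1, of gluconeogenesis, was at 3712 CPM on chow (SD 719) and 2979 CPM on the high-fat diet (SD 494) without passing.

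On the pericentral side Lect2, a secreted chemotactic factor and Wnt target, was at 43.2, 37.5 and 34.7 CPM on chow and 118, 97.3 and 113 CPM on the high-fat diet, with wide gaps between the diets (log2 difference 1.51, SE 0.11, adjusted p = 9.54e-05). Prodh, the first enzyme of proline breakdown, rose from 125 CPM (SD 17.9) to 277 CPM (SD 21.7) (log2 difference 1.15). The 2 members that fell were Oat, which makes glutamate semialdehyde from ornithine, from 2300 CPM (SD 303) to 1275 CPM (SD 166), and the cation transporter Slc22a3, from 17.2 CPM (SD 3.06) to 8.39 CPM (SD 2.15). Cyp2e1, the most abundant member that did not pass, was at 9494 CPM on chow (SD 1050) and 12508 CPM on the high-fat diet (SD 1630). With 1 library left out, 6 without chow replicate 2 and 5 without chow replicate 3 rose.

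**Figure D5:**
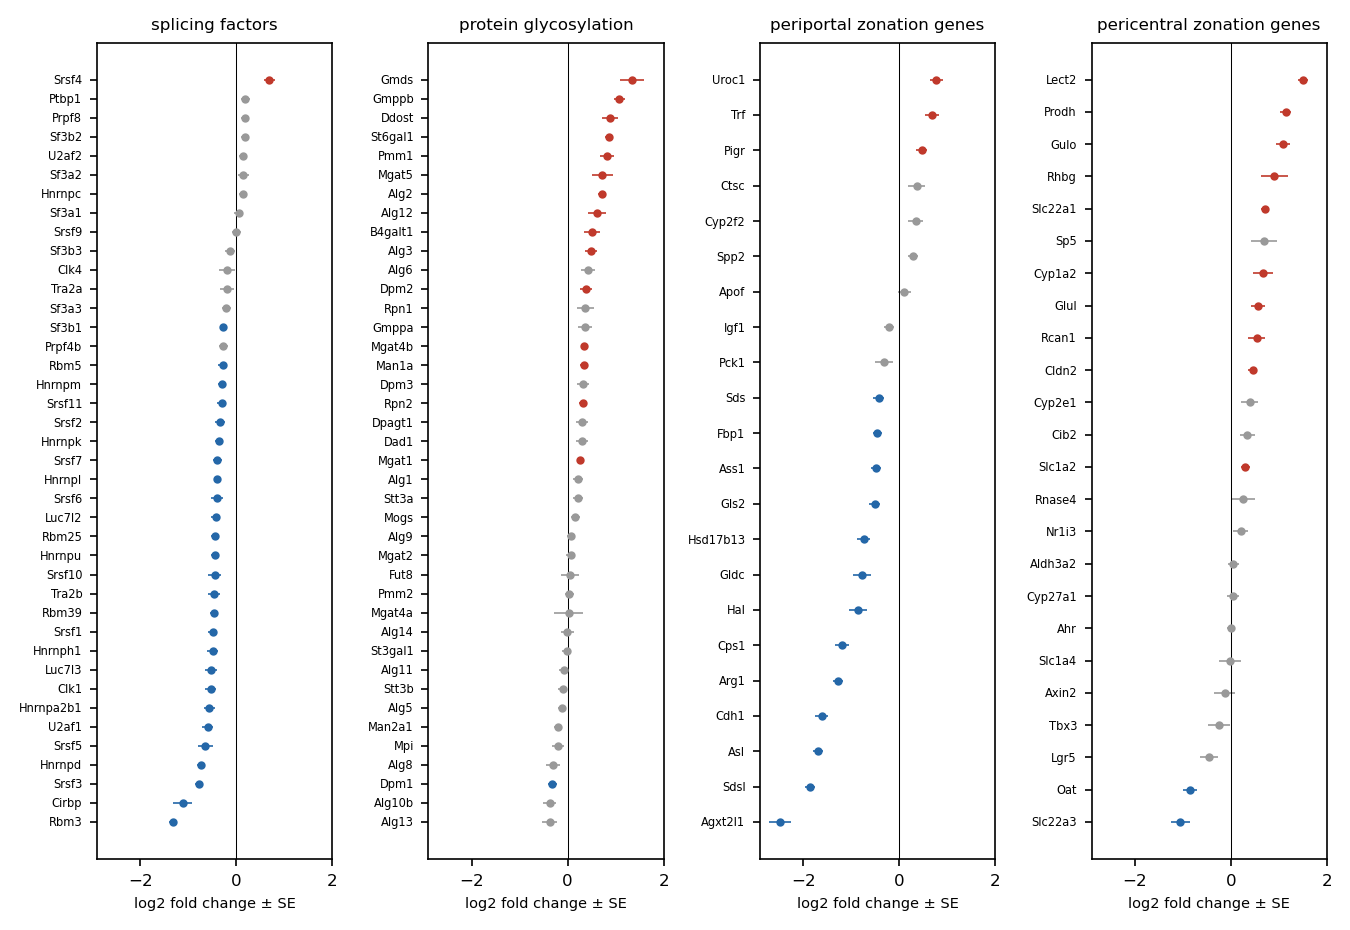
Points give the log2 fold change (high-fat diet over chow) and bars its SE for the tested members of 4 lists (22 of the 23 periportal genes), in red where the member rose, in blue where it fell and in grey where it did not pass. Most splicing factors and periportal genes lie left of 0, and most glycosylation and pericentral genes right of it.

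Genes of protein glycosylation had more increases than decreases: 15 of 40 rose and 1 fell (median 0.28). Gmppb, which makes the mannose donor GDP-mannose, was at 8.67, 9.6 and 9.14 CPM on chow and 21.8, 19.3 and 16.7 CPM on the high-fat diet (log2 difference 1.08, SE 0.12, adjusted p = 0.000461). Gmds, which turns GDP-mannose toward fucose, rose from 0.676 CPM (SD 0.113) to 1.69 CPM (SD 0.254). Man2a1, a mannosidase of the Golgi, was at 368 CPM on chow (SD 26.9) and 320 CPM on the high-fat diet (SD 22.9) without passing. In fits with 5 libraries, 9 without chow replicate 1, 8 without chow replicate 2 and 7 without chow replicate 3 rose. With total counts 23 rose and 1 fell, but with the acinar covariate 2 rose and 0 fell (median 0.10). Of the translocon and vesicle coats 9 of 48 rose (18.8%, against 18.0% of all genes) and 5 fell (10.4%, against 17.6%), and the balance turned with the acinar covariate, where 0 rose and 1 fell (median −0.05). Sec61a1, the channel through which nascent proteins enter the endoplasmic reticulum, rose from 118 CPM (SD 1.33) to 178 CPM (SD 29.4), and Sec23a, of the COPII coat, fell from 160 CPM (SD 6.54) to 104 CPM (SD 7.84). On leaving out single libraries, 3 without chow replicate 2, 3 without chow replicate 3, 10 without high-fat replicate 1 and 2 without high-fat replicate 2 fell.

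Among secreted carriers 9 of 26 rose and 3 fell (median 0.21). Serpina7, the thyroxine-binding globulin, was at 5.44, 9.6 and 7.69 CPM on chow and 56.7, 49.4 and 69.4 CPM on the high-fat diet (log2 difference 2.98, SE 0.213, adjusted p = 9.54e-05). Serpina6, the corticosteroid-binding globulin, was at 52.8, 48.7 and 50.6 CPM on chow and 280, 250 and 255 CPM on the high-fat diet (log2 difference 2.37, SE 0.0818, adjusted p = 1.21e-05). Both are carriers of hormones in plasma, and in both every high-fat-diet library was several times above every chow library. Igfbp2, which binds insulin-like growth factors, fell from 823 CPM (SD 47) to 350 CPM (SD 138), and Itih2, of the inter-alpha-trypsin inhibitors, fell from 1756 CPM (SD 46.4) to 1032 CPM (SD 109). When 1 library was dropped, 5 without chow replicate 2 rose. With the acinar covariate 2 rose and 0 fell (median 0.09) of the carriers. Of all 33 tested serpins 11 rose and 3 fell, among them Serpina3k, at 12685, 15577 and 14061 CPM on chow and 8743, 5158 and 3634 CPM on the high-fat diet; its adjusted p was 0.058 without chow replicate 2 and 0.0528 without high-fat replicate 2. Serpini2, also on the acinar list, fell with that list. Among selenoproteins Dio1, which activates thyroxine, rose from 91.6 CPM (SD 13) to 244 CPM (SD 39.6) (log2 difference 1.41), Gpx1 rose 1.55-fold, and the plasma carrier Sepp1 was at 6865 CPM on chow (SD 342) and 7072 CPM on the high-fat diet (SD 583) without passing.

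Transporters of the Slc22 (organic ion) and Slc16 (monocarboxylate) families rose more often than they fell. Of 15 tested Slc22 genes 8 rose and 2 fell (median 0.42; with the acinar covariate 1 rose and 0 fell (median 0.52)), with Slc22a27 and Slc22a7 above at the top and Slc22a30 at 65.3 CPM on chow (SD 5.99) and 66.1 CPM on the high-fat diet (SD 17.3) without passing. Neighbouring Slc22 genes are close copies, so reads may be split among them. Of 12 monocarboxylate transporters 6 rose and 2 fell. Slc16a11 was at 5.06, 3.86 and 3.33 CPM on chow and 18.8, 18 and 18 CPM on the high-fat diet and its neighbour Slc16a13 at 3.21, 3.43 and 2.37 CPM on chow and 5.97, 6.82 and 7.88 CPM on the high-fat diet, each higher in all high-fat-diet libraries (log2 difference 2.13 and 1.19). Slc16a1, the lactate and ketone body carrier MCT1, was at 110, 136 and 116 CPM on chow and 33.9, 32.6 and 34.9 CPM on the high-fat diet, a 3.57-fold decrease (log2 difference −1.83, SE 0.098, adjusted p = 3.79e-05). Of 8 glucose transporter genes 4 rose and none fell: Slc2a2, the main one of hepatocytes, rose from 154 CPM (SD 19) to 294 CPM (SD 36.1) (log2 difference 0.93, SE 0.121, adjusted p = 0.000876).

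Of 27 amino acid transporters 9 rose and 4 fell. Slc3a1, the heavy chain of a carrier of cystine and basic amino acids, was at 12.1, 17 and 18.3 CPM on chow and 54.8, 50.6 and 48.5 CPM on the high-fat diet (log2 difference 1.71, SE 0.151, adjusted p = 0.000187). The glycine carrier Slc6a9 rose from 19.4 CPM (SD 2.36) to 57.8 CPM (SD 2.63), Slc1a5, of neutral amino acids, fell from 4.45 CPM (SD 0.227) to 1.97 CPM (SD 0.666), and Slc38a2 was at 171 CPM on chow (SD 19.4) and 192 CPM on the high-fat diet (SD 41.1) without passing. Water channels went up where they changed: Aqp8 was at 9.8, 8.85 and 7.64 CPM on chow and 38.8, 38.4 and 61.8 CPM on the high-fat diet (log2 difference 2.39, SE 0.202, adjusted p = 0.000169), and Aqp9, the glycerol channel of hepatocytes, at 549 CPM on chow (SD 34.1) and 514 CPM on the high-fat diet (SD 42.3) without passing. The potassium channels Kcnk5 and Kcnk10 rose 3.47-fold and 5.13-fold. Of 6 tested organic anion transporters of the Slco family 1 rose (16.7%, against 18.0% of all genes) and 2 fell (33.3%, against 17.6%). Their log2 differences ran from −1.85 to 0.78 (median −0.36). Slco2b1 rose 1.71-fold, and Slco2a1, which takes up prostaglandins, fell 2.12-fold. Slc39a14, which brings zinc and manganese into hepatocytes, rose from 230 CPM (SD 25.4) to 413 CPM (SD 94), and Slc30a10, which exports manganese, fell from 38.8 CPM (SD 4.01) to 20.4 CPM (SD 1.98).

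Genes of carbohydrate handling moved in both directions. Of 18 glycogen genes 6 rose and 3 fell. The glycogen-targeting subunits of protein phosphatase 1 stood at both ends: Ppp1r3c was at 40.3, 31.5 and 32.8 CPM on chow and 118, 86.3 and 86.8 CPM on the high-fat diet (log2 difference 1.47, SE 0.15, adjusted p = 0.00031), Ppp1r3b rose from 192 CPM (SD 23.1) to 400 CPM (SD 12.4), and Ppp1r3g was at 1.72, 2.15 and 2.69 CPM on chow and 0.606, 0.667 and 0.358 CPM on the high-fat diet (log2 difference −1.96, SE 0.309, adjusted p = 0.00214). Gys2, the liver glycogen synthase, fell from 300 CPM (SD 31.2) to 207 CPM (SD 38.2); its adjusted p was 0.0743 without chow replicate 2 and 0.0709 without high-fat replicate 2. Ugp2, which makes the glucose donor, was at 248 CPM on chow (SD 8.72) and 287 CPM on the high-fat diet (SD 72.5) without passing. Of 19 pentose phosphate, fructose and hexosamine genes 8 rose and 4 fell. Khk, which phosphorylates fructose, was at 193, 165 and 159 CPM on chow and 363, 404 and 351 CPM on the high-fat diet (log2 difference 1.11, SE 0.102, adjusted p = 0.000211), with every high-fat-diet library above every chow library. Pgm3, of hexosamine synthesis, fell from 41.6 CPM (SD 4.87) to 23.6 CPM (SD 1.25).

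In nucleotide metabolism 8 of 36 genes rose (22.2%, against 18.0% of all genes) and 9 fell (25.0%, against 17.6%). The balance turned under several settings (with total counts 11 rose and 6 fell, and with the acinar covariate 3 rose and 2 fell (median 0.10)). The larger increases were of breakdown enzymes: Upp2, a uridine phosphorylase, was at 134, 105 and 89.2 CPM on chow and 387, 366 and 366 CPM on the high-fat diet (log2 difference 1.77, SE 0.141, adjusted p = 0.000135), and Gda, guanine deaminase, rose from 24 CPM (SD 1.52) to 65.6 CPM (SD 2.03). The salvage enzymes Hprt and Aprt fell, Hprt from 95.2 CPM (SD 3.38) to 51.6 CPM (SD 4.44) (log2 difference −0.88) and Aprt from 31.7 CPM (SD 0.188) to 18 CPM (SD 1.81) (log2 difference −0.81). On leaving out single libraries, 4 without chow replicate 2, 5 without chow replicate 3 and 5 without high-fat replicate 2 fell. Gamt, which makes creatine from guanidinoacetate, was at 27.9, 16.4 and 13.1 CPM on chow and 157, 160 and 120 CPM on the high-fat diet (log2 difference 2.91, SE 0.263, adjusted p = 0.000205). Srm, spermidine synthase, rose 1.92-fold.

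Besides Alas1, the heme enzyme Alad rose from 75.1 CPM (SD 10.4) to 143 CPM (SD 13.5), and Cpox was at 275 CPM on chow (SD 27.5) and 293 CPM on the high-fat diet (SD 13) without passing. In the kynurenine path from tryptophan to NAD, Kynu fell from 275 CPM (SD 16.8) to 124 CPM (SD 6.91) and Acmsd, which diverts the path from NAD, fell from 14.1 CPM (SD 0.737) to 5.43 CPM (SD 1.18). Haao, a step in between, rose from 241 CPM (SD 12.6) to 382 CPM (SD 47.1), and Nampt, of NAD salvage, rose from 64.6 CPM (SD 7.92) to 106 CPM (SD 6.53). Aldh1l1, a folate enzyme, rose 1.82-fold. Rara, the retinoic acid receptor alpha, rose from 10.4 CPM (SD 1.4) to 23.9 CPM (SD 1.14), and Cyp26a1, which breaks retinoic acid down, fell from 4.33 CPM (SD 2) to 1.59 CPM (SD 0.29); its adjusted p was 0.0585 without high-fat replicate 2.

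Families of detoxifying enzymes differed from each other. Sulfotransferases rose, 5 of 7 tested and none down (median 1.03): Sult1c2 was at 1.42, 1.39 and 1.18 CPM on chow and 5.18, 5.21 and 8.37 CPM on the high-fat diet (log2 difference 2.21, SE 0.241, adjusted p = 0.000433) and Sult2a7 rose from 1.63 CPM (SD 0.26) to 3.81 CPM (SD 1.02), but Sult1a1 was at 235 CPM on chow (SD 19) and 244 CPM on the high-fat diet (SD 9.99) without passing. When 1 library was dropped, 3 without chow replicate 2 and 3 without chow replicate 3 rose. Glucuronosyltransferases fell where they changed, 5 of 15 with none up (median −0.04): Ugt1a9 was at 19.6, 29.2 and 29.1 CPM on chow and 4.62, 7.88 and 13.7 CPM on the high-fat diet (log2 difference −1.57, SE 0.336, adjusted p = 0.00824) and Ugt2b38 fell from 14.7 CPM (SD 3.55) to 5.94 CPM (SD 1.97). Carboxylesterases rose in 5 of 14 cases and fell in 1: Ces1g was at 96.6, 69.8 and 67.2 CPM on chow and 222, 261 and 308 CPM on the high-fat diet (log2 difference 1.76, SE 0.169, adjusted p = 0.000252), Ces2e rose from 86 CPM (SD 15.3) to 246 CPM (SD 27.7), and Ces2a fell from 269 CPM (SD 20) to 150 CPM (SD 20.2). Members of these families are near copies, so reads may be shared.

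Of 17 aldehyde dehydrogenases 6 rose and 1 fell, and of 12 aldo-keto reductases 4 rose. Akr1c20 rose from 25 CPM (SD 4.21) to 71.2 CPM (SD 2.42) (log2 difference 1.5), and Akr1d1, the steroid 5-beta-reductase of bile acid synthesis, rose from 89.5 CPM (SD 15.7) to 190 CPM (SD 30.4). Of 18 Dhrs and Rdh enzymes 10 rose and 5 fell, with Dhrs7 at 18.2, 17.5 and 16.8 CPM on chow and 42.2, 47.7 and 49.6 CPM on the high-fat diet (log2 difference 1.41, SE 0.0902, adjusted p = 7.04e-05). With 1 library left out, 2 without chow replicate 2, 3 without chow replicate 3 and 3 without high-fat replicate 2 fell. In the hydroxysteroid group Hsd3b2 was at 13.3, 6.22 and 5.11 CPM on chow and 45.5, 40.1 and 41.1 CPM on the high-fat diet (log2 difference 2.31; its log2 difference was 2.89 without chow replicate 1), and the lipid droplet protein Hsd17b13 fell from 630 CPM (SD 23.8) to 377 CPM (SD 71.5).

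Actin genes had more increases and junction genes more decreases. Of 50 actin cytoskeleton genes 13 rose and 5 fell (median 0.23), and with the acinar covariate 2 rose and 0 fell (median 0.25). Actn1, alpha-actinin, which bundles actin, was at 14.8, 12.2 and 14.4 CPM on chow and 27.3, 27.3 and 36.8 CPM on the high-fat diet (log2 difference 1.14, SE 0.141, adjusted p = 0.000741), and Tmsb10, which binds actin monomers, rose from 2.19 CPM (SD 0.0848) to 5.81 CPM (SD 1.32). Myh10, a non-muscle myosin heavy chain, fell from 40.2 CPM (SD 4.49) to 18.5 CPM (SD 4.6). In fits with 5 libraries, 6 without chow replicate 2, 20 without high-fat replicate 1 and 8 without high-fat replicate 2 rose, and 3 without chow replicate 3 fell. Of 31 junction and polarity genes 3 rose and 8 fell, and with total counts 4 rose and 5 fell. Cldn1, a claudin of tight junctions, was at 70.6, 75.6 and 75.8 CPM on chow and 27.1, 18.2 and 26.2 CPM on the high-fat diet (log2 difference −1.63, SE 0.145, adjusted p = 0.000189). Cdh1, E-cadherin, was at 25.1, 28.3 and 26.8 CPM on chow and 9.1, 7.06 and 10.1 CPM on the high-fat diet (log2 difference −1.61, SE 0.136, adjusted p = 0.000169). Jup, plakoglobin, rose from 37 CPM (SD 2.17) to 56 CPM (SD 4.67), and the gap junction gene Gjb1 was at 410 CPM on chow (SD 18.6) and 453 CPM on the high-fat diet (SD 49.8) without passing. The brain-type beta-tubulin gene Tubb2a fell from 64.1 CPM (SD 12) to 19.4 CPM (SD 6.99).

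Immediate early and stress genes had more increases, 10 of 25 against 3 decreases. Maff, a small Maf factor, was at 2.17, 1.98 and 2.31 CPM on chow and 12.8, 8.55 and 11.1 CPM on the high-fat diet (log2 difference 2.32, SE 0.184, adjusted p = 0.000135) and Atf3 rose from 0.807 CPM (SD 0.231) to 2.92 CPM (SD 1.66) (log2 difference 1.92). Gadd45b went against them, and Myc was at 8.74, 8.05 and 9.52 CPM on chow and 6.67, 3.02 and 2.64 CPM on the high-fat diet; its adjusted p was 0.0647 without chow replicate 1, 0.0639 without chow replicate 2, 0.0697 without chow replicate 3 and 0.0949 without high-fat replicate 2. Of 21 p53 targets 8 rose and 2 fell, and with the acinar covariate 0 rose and 0 fell (median 0.19). Eda2r, a receptor of the ectodysplasin family, was at 0.361, 0.376 and 0.376 CPM on chow and 1.59, 1.76 and 4.12 CPM on the high-fat diet (log2 difference 2.73, SE 0.447, adjusted p = 0.00254), and Mdm2, which targets p53 for breakdown, fell from 37.9 CPM (SD 1.84) to 29.9 CPM (SD 2.46); its adjusted p was 0.0676 without chow replicate 2, 0.0592 without chow replicate 3 and 0.0682 without high-fat replicate 2. When 1 library was dropped, 4 without chow replicate 2 and 5 without chow replicate 3 rose.

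In growth factor signaling Spry4, a feedback inhibitor of receptor tyrosine kinases, was at 3.52, 3.54 and 4.79 CPM on chow and 32, 18.6 and 22.2 CPM on the high-fat diet, 6.19-fold higher (log2 difference 2.63, SE 0.225, adjusted p = 0.000173). The phosphatase Dusp6, another feedback gene of the ERK pathway, rose from 28.4 CPM (SD 8.13) to 60.6 CPM (SD 14.5). Hgfac, the activator of hepatocyte growth factor, rose from 88.1 CPM (SD 18.4) to 239 CPM (SD 52.1) (log2 difference 1.43). Klb, the co-receptor for the hormone FGF21, was at 46.3, 51.7 and 53.6 CPM on chow and 22.8, 24.9 and 28.2 CPM on the high-fat diet (log2 difference −1.0, SE 0.104, adjusted p = 0.000347), and Fgfr1 fell from 15.4 CPM (SD 1.13) to 6.81 CPM (SD 0.826). Receptors for cytokines moved as well: Il1r1 was at 37.4, 44.5 and 54.7 CPM on chow and 218, 177 and 160 CPM on the high-fat diet (log2 difference 2.03, SE 0.163, adjusted p = 0.000135), whereas Il22ra1 fell from 15.2 CPM (SD 3.8) to 4.95 CPM (SD 1.07). Among genes of TGF-beta and bone morphogenetic protein signaling (4 up, 8 down of 40), Gdf15 rose from 3.58 CPM (SD 1.49) to 12 CPM (SD 4.32) and Smad9 was at 22.8, 28.4 and 21.5 CPM on chow and 9.75, 9.8 and 2.77 CPM on the high-fat diet (log2 difference −1.70, SE 0.375, adjusted p = 0.00935). Without high-fat replicate 1, 9 genes of that list rose and 9 fell. Few Hippo genes passed, 1 up and 1 down of 20, with Amotl2 the riser at 1.55-fold. Sav1, the member that fell, went from 16.9 CPM (SD 0.487) to 13.6 CPM (SD 1.25); its adjusted p was 0.0822 without chow replicate 1, 0.0966 without chow replicate 2, 0.11 without chow replicate 3, 0.0655 without high-fat replicate 1 and 0.12 without high-fat replicate 2. In the same list 3 genes rose and none fell without high-fat replicate 1, and 1 rose and 5 fell without high-fat replicate 3.

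Of 35 tested replication and mitosis genes 7 rose (20%, close to the 18.0% of all genes) and none fell, against 17.6% (median 0.25). Pold1, of DNA polymerase delta, was at 2.19, 1.82 and 1.94 CPM on chow and 3.73, 4.67 and 3.67 CPM on the high-fat diet (log2 difference 1.01, SE 0.18, adjusted p = 0.00372). With 1 library left out, 2 without chow replicate 2, 4 without chow replicate 3, 12 without high-fat replicate 1 and 3 without high-fat replicate 2 rose. Bhlhe40, a repressor also tied to the clock, rose from 27.4 CPM (SD 0.596) to 108 CPM (SD 9.3), and Pfkfb3, which raises fructose 2,6-bisphosphate, rose from 16.8 CPM (SD 0.578) to 41 CPM (SD 8.5). Ddit4, an inhibitor of mTORC1, fell from 17.6 CPM (SD 4.76) to 7.82 CPM (SD 1.32). Of 39 lysosomal genes 9 rose (23.1%, against 18.0% of all genes) and 4 fell (10.3%, against 17.6%). The hexosaminidase gene Hexa rose 1.84-fold, and cathepsin L, Ctsl, was at 809, 899 and 948 CPM on chow and 438, 393 and 448 CPM on the high-fat diet (log2 difference −1.05, SE 0.102, adjusted p = 0.000256). The balance of this list turned with the acinar covariate, where 0 rose and 2 fell (median −0.02). Of the ubiquitin families Usp2 rose from 14.2 CPM (SD 2.07) to 92.2 CPM (SD 7.18) (log2 difference 2.69), while 13 of 43 Usp genes fell and 6 rose. On leaving out single libraries, 2 without chow replicate 1, 2 without chow replicate 2 and 2 without high-fat replicate 2 rose, and 7 without chow replicate 2, 7 without chow replicate 3 and 8 without high-fat replicate 2 fell.

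Of the tested macrophage, stellate cell and endothelial markers 21.1%, 18.8% and 11.8% rose with all libraries, against 18.0% of all genes. In the same order 5.26%, 6.25% and 0% fell, against 17.6%. The number that rose changed with single libraries. Kupffer cell and other macrophage markers summed to 345, 383 and 605 CPM on chow and to 399, 712 and 542 CPM on the high-fat diet, overlapping (exact permutation p = 0.5, two-sided), and 4 of 19 tested members rose and 1 fell, with 0 to 6 up when 1 library was left out. Endothelial markers summed to 414, 533 and 605 CPM on chow and to 455, 766 and 649 CPM on the high-fat diet, with 2 of 17 raised, and 0 to 7 when 1 library was left out. Stellate cell and fibroblast markers summed to 519, 497 and 493 CPM on chow and to 390, 585 and 728 CPM on the high-fat diet. Of these, 3 of 16 rose and 1 fell, and 0 to 9 rose when 1 library was left out. Some other sums were higher in every high-fat-diet library than in any chow library. Erythroid cell and platelet markers summed to 74.2 to 101 CPM on chow and 102 to 133 CPM on the high-fat diet. For T and natural killer cells the sums were 4.51 to 5.75 against 6.02 to 7.18 CPM, with none of the 5 tested members past the threshold. Dendritic cell markers summed to 60.7 to 70.2 CPM on chow and 89.5 to 116 CPM on the high-fat diet, where the 1 member that rose was the interferon-induced Bst2 (named after its value was seen), and adipose tissue genes to 3173 to 4565 and 5223 to 6326 CPM (exact permutation p = 0.1 for each, two-sided). Their part in other results was not tested. Of the 32 tested acinar genes 28 fell and none rose (median −3.93), and Ctrb1, chymotrypsinogen, was at 393, 163 and 62.1 CPM on chow and 0.42, 37.2 and 0.448 CPM on the high-fat diet; its log2 difference was −8.88 without high-fat replicate 2 and its adjusted p was 0.123 without chow replicate 1, 0.0973 without chow replicate 2, 0.0561 without chow replicate 3, 0.0695 without high-fat replicate 1 and 0.0541 without high-fat replicate 3.

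Neighbouring genes sometimes moved together. On the gene order of RefSeq (GRCm38.p6, used for order only), 12826 tested genes were placed, and there were 35 runs of 4 or more adjacent tested genes that all rose and 39 that all fell. Of all genes tested 18.0% rose and 17.6% fell, so some runs would arise among unrelated neighbours, and how many was not worked out. Some runs that fell held pancreas acinar genes, such as Pnlip on chromosome 19 and Try4 and Prss2 on chromosome 6. The longest run, 7 genes on chromosome 5 from Glmn through Evi5 and the ribosomal protein gene Rpl5 to Tmed5, fell throughout. Runs of 6 that fell were the Cyp4a cluster on chromosome 4, genes from Gtf2h2 through Ocln and Marveld2 to Ccdc125 on chromosome 13, and genes around Cyp7b1 on chromosome 3. Among the runs of 6 that rose was the Oas cluster on chromosome 5. Genes in the Cyp4a and Oas clusters are tandem copies whose reads can be shared. The labels do not say whether counting used strand, and for overlapping neighbours the reads cannot be told apart.

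Far fewer promoters than genes passed the test. In the promoter counts of H3K27ac, a mark of active promoters, from 3 libraries per diet of the same study, 39 of 20891 promoters tested (0.187%) were higher and 10 (0.0479%) lower by the same edgeR test. The calls changed with single libraries: none passed without chow replicate 2 and only 1 promoter, lower, without chow replicate 1. There were 4 higher and 3 lower without chow replicate 3 and 5 and 3 without high-fat-diet replicate 3. Without high-fat-diet replicate 1 there were 73 higher and 22 lower, and without high-fat-diet replicate 2 there were 537 and 199. Of the 39 promoters 17 belonged to genes whose mRNA was not tested. Of the other 22, 11 belonged to genes whose mRNA rose and none to a gene that fell. The 11 are 28.2% of the 39 promoters, 50.0% of the 22 and 0.474% of the genes that rose, and 18.0% of the 12791 genes in both tables rose. They included Osbpl3, an oxysterol-binding protein relative (promoter log2 difference 0.61, mRNA 2.30), Gpc1, glypican 1 (0.51 and 1.66), and Sfpi1, the macrophage factor PU.1 (0.82 and 0.97), named after their values were seen. Both Sfpi1 and Cd68 (0.51 and 0.86) mark macrophages, whose summed markers overlapped between the diets. The mRNA of the other 11 genes did not pass, among them the immune cell genes H2-Aa, Il10ra and Cd52, also named after their values were seen. Of the 10 lower promoters, 9 of them with tested mRNA, 2 belonged to genes that fell, Dact2 and Ppp1r9a, also named after their values were seen. The 2 are 22.2% of the 9, near the 17.6% of the 12791 genes in both tables that fell. The median promoter log2 difference was 0.06 for the 610 genes whose mRNA rose over 2-fold and −0.13 for the 291 that fell over 2-fold, against −0.05 over all 12791 genes in both tables.

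Promoter sequences of RefSeq (GRCm38.p6), from 250 bases before to 50 after a start site, were found by symbol for 10232 of the tested genes and gave 13033 windows of 300 bases. Of 7 short motifs searched on both strands, TGANTCA, the core of AP-1 sites, was in 10.1% of the 593 windows of genes that rose over 2-fold, in 7.41% of the 270 of genes that fell over 2-fold and in 5.45% of all. TGACGTCA, the cyclic AMP response element, was in 0.675%, 3.33% and 2.82%, TGACNNNGC in 14.2%, 12.2% and 14.2%, and CACGTG, the E-box of clock and sterol factors, in 8.26%, 8.52% and 9.76%. TTCNNNGAA, the core of STAT sites, was in 8.26%, 5.93% and 7.02%, and CCAAT in 39.1%, 40.0% and 37.4%. TGATGCAA, the element of genes controlled by ATF4 and C/EBP factors, was rare, in 0.637% of all windows, and was in 1.18% of the windows of genes that rose over 2-fold and 2.59% of those of genes that fell. A match is a description and not a site. Matches of different motifs may overlap.

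These are the 12 distinct stretches with TGATGCAA in genes that changed over 2-fold, shown because the same letters stand before genes that moved in opposite directions. One more window, of an acinar gene, is left out. Each stretch has 28 bases in the direction of the gene, 5′ to 3′, with the motif or its reverse complement TTGCATCA in capitals. The first 6 belong to genes that rose and the last 6 to genes that fell.
Chac1 (chr2:119351039-119351066, plus strand, GRCm38.p6): ttccctgccgTTGCATCActcctgccag
Rhobtb1 (chr10:69208466-69208493, plus strand, GRCm38.p6): tccacagctgTTGCATCAatcactgggg
Atf3 (chr1:191183426-191183453, minus strand, GRCm38.p6): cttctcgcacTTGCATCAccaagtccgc
Vldlr (chr19:27216810-27216837, plus strand, GRCm38.p6): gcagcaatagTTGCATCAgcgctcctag
Limd2 (chr11:106160880-106160907, minus strand, GRCm38.p6): aaggtgtgctTGATGCAAggaagtgggt
Map3k13 (chr16:21891890-21891917, plus strand, GRCm38.p6): gagtcctctcTTGCATCAaacctctgtt
Fgf21 (chr7:45615612-45615639, minus strand, GRCm38.p6): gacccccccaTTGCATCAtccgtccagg
G6pc (chr11:101367568-101367595, plus strand, GRCm38.p6): ctgaacatgtTTGCATCAacctactgat
Insig2 (chr1:121328185-121328212, minus strand, GRCm38.p6): tctcgagagcTGATGCAAagagctgcct
Pik3c2g (chr6:139613989-139614016, plus strand, GRCm38.p6): tgaatctcagTTGCATCAacagtgtcag
Cyp3a11 (chr5:145879936-145879963, minus strand, GRCm38.p6): caaagtccagTGATGCAAaggtgatcca
Got1 (chr19:43524690-43524717, minus strand, GRCm38.p6): attgcattggTTGCATCAtacaagcctc
The genes that rose are Chac1, which breaks down glutathione, Rhobtb1, the transcription factor Atf3, the lipoprotein receptor Vldlr, Limd2 and the kinase Map3k13. The genes that fell are the hormone Fgf21, the glucose-releasing enzyme G6pc, the sterol regulator Insig2, the lipid kinase Pik3c2g, Cyp3a11 and Got1, the cytosolic aspartate aminotransferase. Their log2 differences ran from 1.08 for Map3k13 to 2.65 for Chac1 among the first and from −1.22 for Fgf21 to −2.39 for Got1 among the second. In 9 of the 12 stretches the motif reads as TTGCATCA and in 3 as TGATGCAA. It began between 69 and 200 bases before the start site.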

How the data were processed

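RNA of 3 chow and 3 high-fat-diet liver samples was sequenced from TruSeq v1 libraries, and H3K27ac was measured by ChIP-seq in 3 libraries per diet. The values used are whole-number counts per gene and per promoter as the authors deposited them, not normalized. The submitters' processing notes name TopHat 1.4.0, HTSeq, DESeq2 1.0.18, Bowtie 0.12.7, MACS 1.4.0rc2 and bedtools, and the build mm9. Which strand setting was used in counting is not given in the sources used here.

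Counts were filtered with filterByExpr, scaled with TMM factors (0.953 to 1.07 for mRNA) and tested with edgeR 4.0.16 (quasi-likelihood, limma 3.58.1, R 4.3.3), diet being the only term, over all genes, with Benjamini-Hochberg adjustment at 0.05. DESeq2 1.42.0 and other scalings, filters and libraries left out were alternatives. Simulated counts of 12802 mRNA genes held 200 changed genes, all with an average log2 CPM over 2. Of these, 95% of genes changed by a log2 of 1 and 100% of those changed by 2 were found, and 5.34% of calls were false. These shares do not cover genes at lower levels, and no variation shared among genes, such as the acinar signal, was simulated. H3K27ac totals ran from 1967613 to 4964403 counts.

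Genes were named by rule: the 15 largest log2 changes each way at 5 CPM or more without overlap, the 8 largest CPM gains and losses, and from each list up to 2 members each way at 1 CPM or more and the most abundant member that did not pass. The members and lists were chosen with earlier results of these data known. The rule names 436 genes, of which the text gives a part, and the others are not reported here. Motif and promoter genes were named from their matches and calls.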

Additional observations from a re-analysis of the deposited data

How the results depend on the processing

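The 2319 higher and 2271 lower mRNA genes became 2158 and 2175 with DESeq2, 2259 and 2351 with DESeq2 size factors, 2253 and 2207 with no filter, and 2345 and 2275 with genes of other tissues left out. A test against 1.5-fold left 459 and 233, and the acinar covariate left 371 and 385. The first asks for a larger change, and in the second the covariate differs between the diets. Leaving out 1 library gave 1489 to 2580 higher and 1410 to 2583 lower genes. Every gene called both with all libraries and in an alternative had the same direction in both. Of the 172 genes given in the text and past the threshold, 160 stayed past it without any 1 library. They were named largely for the size of their change and are only a part of the 436 that the rule names. Others of the 436 that the text leaves out, among them Cars, Pcx and Sox7, lost the call without 1 library or another. The 160 of 172 therefore does not hold for all genes named by the rule. Of all 4590 called genes, 2850 stayed past the threshold without chow replicate 2 and 3118 without high-fat replicate 2. With the acinar covariate 86 of the 172 stayed past it, 85 did not and 1 reversed: Ctrb1, itself an acinar gene, at a log2 difference of 0.52. Under that covariate the balance of higher and lower genes turned in 10 of 113 lists, among them the secretory, lysosome, purine and NAD lists. With the replicate block 2274 mRNA genes were higher and 2188 lower, and all 172 genes given in the text stayed past the threshold. Deviations of same-numbered mRNA libraries had correlations of 0.04, −0.04 and 0.14, not all over 0.1, and not every library correlated best with its own number. For promoters these were 0.09, −0.01 and 0.04, and the replicate block gave 315 higher and 155 lower promoters against 39 and 10, the cause of which was not tested. Leaving out 1 H3K27ac library gave 0 to 537 higher and 0 to 199 lower promoters. Without its 3 most abundant genes the acinar sum was 1872, 873 and 331 CPM on chow and 3.41, 196 and 56.9 CPM on the high-fat diet. A comparison by gene length was not run. Fewer calls were made among genes under 1 CPM, where 99 of 1025 rose (9.66%) and 56 fell (5.46%), and the part of depth in this was not tested.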
